A study of Mus musculus with 16 samples.

Results

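Cpa1, Cpb1, Amy1, Amy2b and Rnase1 encode digestive enzymes of the exocrine pancreas other than its serine proteases and lipases. These 5 genes were taken by symbol from the 22869 genes counted by the authors, and all 5 stand among the 2283 genes of the authors' deposited comparison table. Cpa1 and Cpb1 are carboxypeptidases, Amy1 and Amy2b are alpha-amylases, and Rnase1 is the pancreatic ribonuclease.

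RNA of whole pancreata from mouse embryos of a mixed background was sequenced at embryonic day 15.5 in 4 genotypes. There were 5 libraries of double heterozygotes (Pdx1LacZ/+;Oc1+/-), 4 of Pdx1 heterozygotes, whose mutant allele carries lacZ, 3 of Oc1 heterozygotes (Oc1+/-) and 4 of control embryos, 16 libraries in all. Oc1 is the protein of the gene listed as Onecut1. Nothing in the labels says whether the libraries of a genotype came from separate embryos or litters, so p-values speak only for the spread among these libraries. Values of single libraries were not analysed here, because no label ties a library to its column of counts. Each value below is therefore the authors' value for a genotype comparison, or was derived from such values.

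Acinar cells make the digestive enzymes, store them in zymogen granules and release them into the ducts. The carboxypeptidases are stored as inactive precursors that trypsin activates in the gut, where they remove residues from the C-terminal ends of dietary peptides. Amylases cleave starch and the ribonuclease cleaves RNA, and both are secreted in active form. In the mouse embryo Cpa1 already marks the progenitors at the tips of the branching epithelium, while the other enzymes come up as acinar cells mature under Ptf1a and Rbpjl, subunits of the PTF1 complex, and Bhlha15 (Mist1). Pdx1 and Oc1 are factors of the early pancreatic epithelium, so the 4 genotypes ask what the loss of a copy of each gene, or of both, does to enzyme transcripts.

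All 5 genes were found in the RefSeq promoter table of build GRCm38.p6, which gives 250 bases before and 50 bases after each annotated start. The letters CANNTG (E-box) and TGGGAA (part of the box read by the Rbpj subunits of PTF1) are shown in capitals, on either strand, because PTF1 reads both in acinar genes. One window is shown for each carboxypeptidase, for the amylase with the higher level and for the ribonuclease.
Cpa1, chr6:30638968-30639267, plus strand: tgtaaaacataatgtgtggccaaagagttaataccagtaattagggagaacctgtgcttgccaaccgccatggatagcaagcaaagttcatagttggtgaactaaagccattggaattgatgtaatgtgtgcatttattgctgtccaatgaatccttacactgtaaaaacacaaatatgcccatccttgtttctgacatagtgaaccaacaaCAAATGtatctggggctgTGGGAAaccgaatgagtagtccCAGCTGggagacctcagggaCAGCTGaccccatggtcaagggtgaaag
Cpb1, chr3:20275684-20275983, minus strand: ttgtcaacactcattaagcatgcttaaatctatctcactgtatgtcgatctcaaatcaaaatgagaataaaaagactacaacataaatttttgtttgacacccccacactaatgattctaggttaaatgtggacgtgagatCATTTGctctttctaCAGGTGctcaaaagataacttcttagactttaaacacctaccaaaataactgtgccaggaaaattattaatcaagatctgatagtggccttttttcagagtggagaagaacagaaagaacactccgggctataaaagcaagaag
Amy2b, chr3:113156678-113156977, minus strand: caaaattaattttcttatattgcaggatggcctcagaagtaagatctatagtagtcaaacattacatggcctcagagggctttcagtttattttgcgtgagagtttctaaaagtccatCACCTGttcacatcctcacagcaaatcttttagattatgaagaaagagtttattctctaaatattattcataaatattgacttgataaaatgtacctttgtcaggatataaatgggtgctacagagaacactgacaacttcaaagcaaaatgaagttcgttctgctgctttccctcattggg
Rnase1, chr14:51146718-51147017, minus strand: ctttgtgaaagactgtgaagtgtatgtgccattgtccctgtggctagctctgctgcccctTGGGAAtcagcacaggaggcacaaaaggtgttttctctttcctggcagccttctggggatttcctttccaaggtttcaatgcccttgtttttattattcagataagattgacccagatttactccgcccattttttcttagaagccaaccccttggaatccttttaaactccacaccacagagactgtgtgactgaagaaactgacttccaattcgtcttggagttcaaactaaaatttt

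Of the 5 genes only Cpa1 had a window with CANNTG and TGGGAA with 2 to 25 bases between them, a spacing found in 5.77% of 32851 promoters of the table. Its TGGGAA began 20 bases before the start, with a gap of 12 bases to the CANNTG on one side and of 16 bases to that on the other. CANNTG was present in windows of 4 of the 5 genes, against 72.3% of all promoters, and TGGGAA in 3 of 5, against 25.6%. Rnase1 held a TGGGAA 190 bases before its start and no CANNTG. Cpb1 held 2 CANNTG, 109 and 94 bases before the start, and Amy2b 1, at 132 bases before it. The TATAAA letters of a TATA box stood 26 bases before the start of Amy2b and were present in windows of 3 of the 5 genes, against 13.6% of all promoters. In Cpb1 TATAAA lay 36 bases after the annotated start. ATCAAT, core letters read by Onecut factors, was found in 2 of 5 genes (7.54% of all promoters), at 135 bases before the start of Cpa1 and 227 bases before the second of the 2 annotated starts of Amy1. TAATTA, core letters read by homeodomain factors such as Pdx1, was found in Cpa1 alone, 213 bases before its start (5.29% of all promoters). These matches describe the letters of the windows only.

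The genes differed widely in abundance. Per kilobase of transcript, the mean log2 CPM over all libraries computed from the authors' deposited table was 11.88 for Cpa1, 7.88 for Amy2b, 6.71 for Cpb1, 5.45 for Rnase1 and 2.79 for Amy1. Before the division by length, Cpa1 had a mean log2 CPM of 12.55 in the authors' deposited table and stood at rank 3 of its 2283 genes. At this stage Cpa1 transcript was thus far more abundant than that of Cpb1, and Amy1, the gene known for amylase of the mouse salivary gland, was the least abundant of the 5.

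All 5 genes rose in Oc1 heterozygous pancreata, and none was called in the Pdx1 or double heterozygotes. A call needed both an adjusted p under 0.05 and a difference of 1.5-fold or more. In the Oc1 heterozygotes 6.24% of the 22869 genes were called against control, 3.66% as higher. The background share called was 0.249% in the Pdx1 heterozygotes and 0.743% in the double heterozygotes. The median log2 fold change of the 5 genes was 0.68 in double, 1.23 in Pdx1 and 1.88 in Oc1 heterozygotes in the authors' deposited table, against medians of 0.05, 0.10 and 0.06 over all genes listed there. The 2283 listed genes are a part of those counted, and 1428 of them were called in Oc1 heterozygotes. Medians and ranks over listed genes, here and below, are therefore not those of all counted genes. Genotypes are named by the headings of the 3 comparisons with control, while those of the deposited comparisons between mutants do not match their values. The 3 comparisons use the same control libraries and are not independent of each other. In pancreas as a whole, more acinar cells and more of a transcript per acinar cell cannot be told apart.

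**Figure D1:**
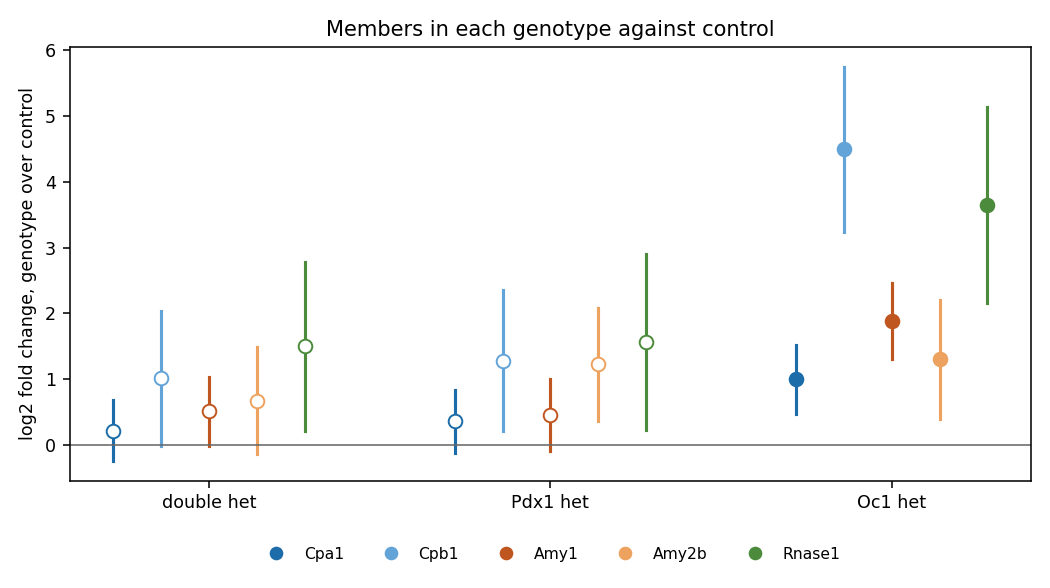
Log2 fold change of each gene against control in double, Pdx1 and Oc1 heterozygotes, from the authors' deposited table. Bars are 95% intervals taken from the authors' p-values and filled points passed the call; all 5 points of the Oc1 heterozygotes are filled, from 1.0 for Cpa1 to 4.49 for Cpb1.

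The carboxypeptidases rose to very different degrees. Cpb1, which removes basic residues exposed by trypsin, rose by 4.49 on the log2 scale in Oc1 heterozygotes in the authors' deposited table (22.5-fold; 95% interval 3.24 to 5.74 from the authors' p-value; edgeR adjusted p = 6.06e-10). This was the rank 4 difference of all 2283 listed genes, from the top. Cpa1, which removes aromatic and aliphatic residues, rose by 1.0 in the authors' deposited table (2-fold; interval 0.48 to 1.52; edgeR adjusted p = 0.00232), at rank 463. The intervals of the 2 carboxypeptidases do not overlap.

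In double heterozygotes Cpb1 stood at 1.02 against control in the authors' deposited table (interval -0.01 to 2.04; p = 0.0514, edgeR adjusted p = 0.696). In Pdx1 heterozygotes it stood at 1.28 in the authors' deposited table (interval 0.21 to 2.36; p = 0.0189, edgeR adjusted p = 0.65). Neither value was called, and the intervals leave room for differences of up to 2.04 and 2.36. Cpa1 stood at 0.22 in double heterozygotes (interval -0.24 to 0.68) and at 0.36 in Pdx1 heterozygotes (interval -0.12 to 0.84) in the authors' deposited table, with an edgeR adjusted p of 1 for both.

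To set the genotypes side by side, the mean CPM of each gene in each genotype was estimated from the authors' mean CPM and fold changes, giving every library equal weight. These estimates have no error of their own. Cpb1 came to 101 CPM in double heterozygotes, 121 in Pdx1 heterozygotes and 1120 in Oc1 heterozygotes, against 49.9 CPM in control pancreata. Cpa1 came to 5332 CPM in double, 5865 in Pdx1 and 9134 in Oc1 heterozygotes, against 4568 CPM in control pancreata. The gene with the lower level in control thus had the larger fold change, while Cpa1 had the larger difference in CPM. Mean log2 CPM was set beside the difference in Oc1 heterozygotes across 35 listed acinar genes, the 5 included, not all of them enzymes. The Spearman rho was -0.188 and the Pearson r was -0.23. That is a description across genes that share all libraries, and 3 of these genes, Amy2a2, Amy2a3 and Amy2a4, have the same values.

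**Figure D2:**
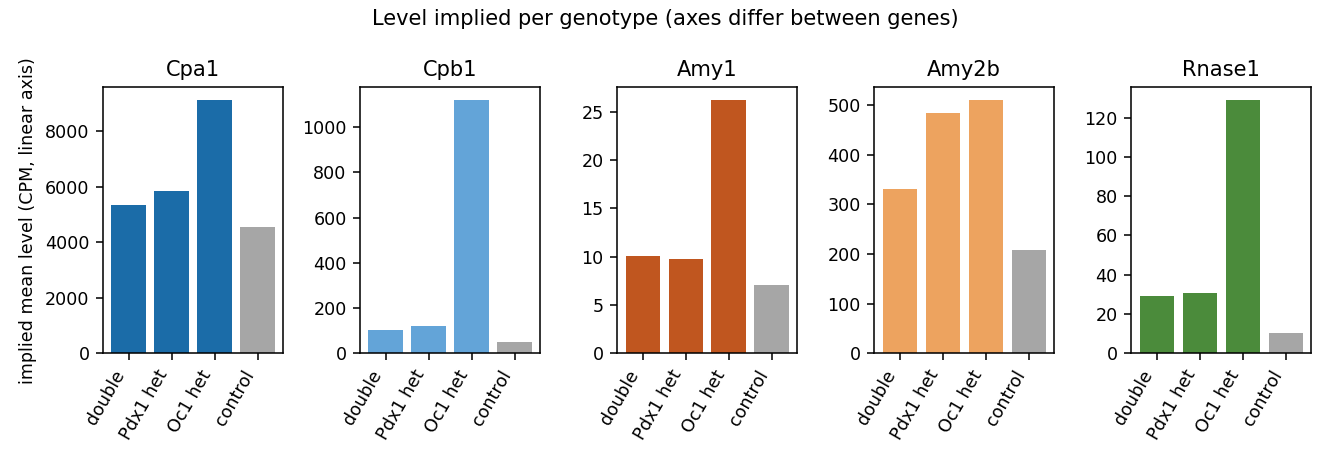
Mean level of each gene (CPM, linear axis from 0, a separate scale for each gene) in double, Pdx1 and Oc1 heterozygotes and in control, estimated from the authors' deposited mean CPM and fold changes, with no error bars. The bar of the Oc1 heterozygotes is the highest in each panel, at 1120 CPM for Cpb1 against 49.9 CPM in control, while for Amy2b the bars of Pdx1 and Oc1 heterozygotes lie close, at 484 and 510 CPM.

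Both amylases rose in Oc1 heterozygotes. Amy1 and Amy2b flank the Amy2a genes on chromosome 3 in the RefSeq annotation. Amy1 rose by 1.88 in Oc1 heterozygotes in the authors' deposited table (3.69-fold; interval 1.30 to 2.47; edgeR adjusted p = 3.16e-08). Amy2b rose by 1.30 in the authors' deposited table (2.47-fold; interval 0.40 to 2.21; edgeR adjusted p = 0.0357). The intervals of both genes overlap. Estimated levels of Amy1 were 10.1 CPM in double, 9.77 in Pdx1 and 26.2 in Oc1 heterozygotes, against 7.09 CPM in control pancreata. For Amy2b they were 330 CPM in double, 484 in Pdx1 and 510 in Oc1 heterozygotes, against 207 CPM in control pancreata.

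Amy2b had nearly the same difference in Pdx1 as in Oc1 heterozygotes. In Pdx1 heterozygotes it stood at 1.23 in the authors' deposited table (2.34-fold; interval 0.37 to 2.09). Its p there was 0.00487 before adjustment, and the edgeR adjusted p of the authors' deposited table was 0.352. The unadjusted p in Oc1 heterozygotes was 0.00484, so the call in one genotype and not in the other follows from the adjustment over all genes. In double heterozygotes Amy2b stood at 0.68 in the authors' deposited table (interval -0.13 to 1.49; edgeR adjusted p = 0.857). Amy1 stood at 0.52 in double heterozygotes (interval -0.01 to 1.04; edgeR adjusted p = 0.702) and at 0.46 in Pdx1 heterozygotes (interval -0.08 to 1.01; edgeR adjusted p = 0.999) in the authors' deposited table.

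Amylase genes share sequence, which bears on how far their counts can be told apart. Of the 50-letter words of the Amy2b transcript, 40.2% also occur in transcripts of another gene, chiefly Amy2a2, Amy2a3 and Amy2a4, and 11.4% of its 100-letter words do. Amy1 shares 3.02% of its 50-letter words and 0% of its 100-letter words. How the authors treated reads that match several genes is not given in the sources used here, so the value of Amy2b is uncertain to that extent. GENCODE M21 lists Amy2b as an unprocessed pseudogene, while RefSeq lists it as protein coding. The length and words of Amy2b come from the longest GENCODE transcript of its symbol, since the RefSeq transcript counted for it had no match there. No 50-letter word of Cpa1, Cpb1 or Rnase1 occurs in transcripts of another gene (0% each).

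Rnase1 rose by 3.65 in Oc1 heterozygotes in the authors' deposited table (12.5-fold; interval 2.16 to 5.13; edgeR adjusted p = 5.04e-05), at rank 24 of the 2283 listed genes. It stood at 1.5 in double heterozygotes in the authors' deposited table (2.83-fold; interval 0.22 to 2.79; p = 0.022, edgeR adjusted p = 0.488). In Pdx1 heterozygotes it stood at 1.57 in the authors' deposited table (2.96-fold; interval 0.23 to 2.90; p = 0.0214, edgeR adjusted p = 0.681). Its standard error from the authors' p-value, 0.76 in Oc1 heterozygotes, was the largest of the 5 genes. The estimated level of Rnase1 was 29.1 CPM in double, 30.5 in Pdx1 and 129 in Oc1 heterozygotes, against 10.3 CPM in control pancreata.

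None of the 5 genes was called in double or Pdx1 heterozygotes, although all 10 fold changes of these genotypes were above 0. Before adjustment, 1 gene had p under 0.05 by the authors' edgeR test in double heterozygotes, Rnase1, and 3 in Pdx1 heterozygotes, Cpb1, Amy2b and Rnase1.

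Direct comparison of genotypes placed the Oc1 heterozygotes above the other mutants for most of these genes. In double against Oc1 heterozygotes, a comparison derived by summing the authors' log2 fold changes, 4 of the 5 genes were lower. Of the 22869 genes 4.88% were called and 2.79% were lower, but unlisted genes could not be called. The 1117 called genes, 639 of them lower, all stand among the 2283 listed. Cpb1 was lower by -3.47 on the log2 scale (interval -4.61 to -2.34; adjusted p = 1.93e-07, two-sided normal test on values of the authors' deposited table). In the same test Amy1 stood at -1.37 (interval -1.93 to -0.81; adjusted p = 6.05e-05 from the authors' deposited table). Rnase1 stood at -2.14 and Cpa1 at -0.78 (adjusted p of 0.0401 and 0.0402, from the authors' deposited table), close to the threshold. Both lost the call when the variance was taken from a t quantile with 12 degrees of freedom (adjusted p = 0.0625 and 0.0757), which left 2 genes called. The difference of Amy2b was -0.63 (interval -1.50 to 0.24; adjusted p = 1, from the authors' deposited table), and was not called.

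In Pdx1 against Oc1 heterozygotes, 3 of the 5 genes were lower by the authors' own test, where 4.66% of genes were called and 2.46% were lower. Cpb1 stood at -3.21, Amy1 at -1.42 and Rnase1 at -2.08 in the authors' deposited table (edgeR adjusted p = 1.26e-05, 7.96e-05 and 0.0387). Cpa1 stood at -0.64 in the authors' deposited table and was not called (interval -1.16 to -0.12; p = 0.0157, edgeR adjusted p = 0.105). Amy2b stood at -0.07 in the authors' deposited table (interval -0.98 to 0.84; edgeR adjusted p = 1), an interval that leaves room for nearly 1 log2 unit in either direction.

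Double and Pdx1 heterozygotes, in contrast, had no called difference among the 5 genes, where 0.861% of genes were called, and before adjustment 0 of the 5 had p under 0.05 by the authors' edgeR test. With the sign turned, the differences of the authors' deposited table were -0.14 for Cpa1, -0.27 for Cpb1, 0.05 for Amy1, -0.55 for Amy2b and -0.06 for Rnase1. These signs would turn if the headings of Pdx1 and double heterozygotes were exchanged. The interval of Cpa1 was -0.60 to 0.32 and that of Cpb1 -1.27 to 0.73, from p-values of the authors' deposited table. A difference of 2-fold was therefore outside the interval for Cpa1 and inside it for Cpb1.

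**Figure D3:**
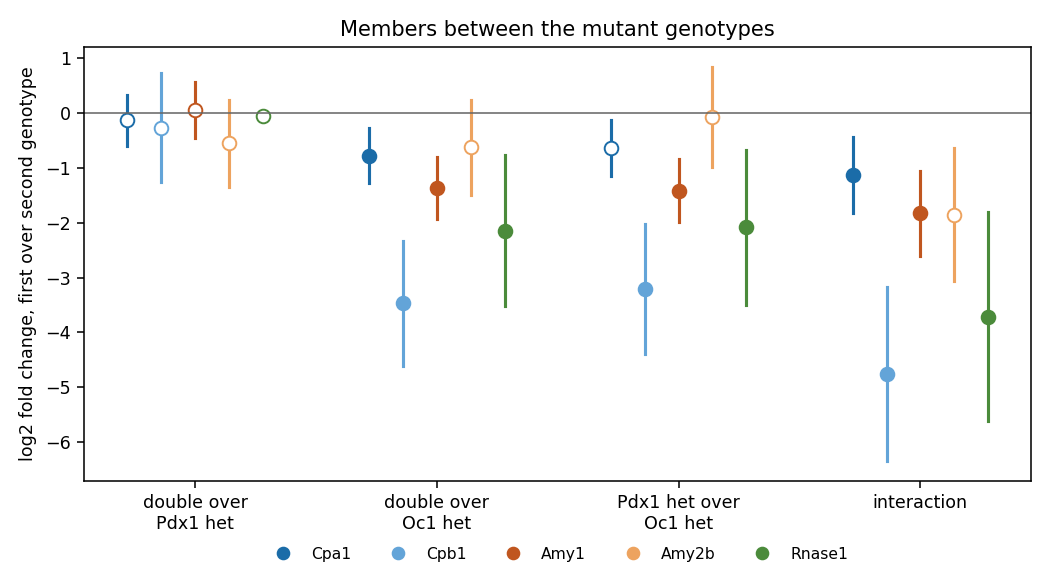
Log2 fold change of each gene in double over Pdx1, double over Oc1 and Pdx1 over Oc1 heterozygotes, and the interaction of both alleles, with 95% intervals from the authors' p-values and called values filled. Rnase1 has no interval in double over Pdx1 heterozygotes, since its p of 0.919 gives no stable variance; 4 genes are filled below 0 in double over Oc1 heterozygotes, 3 in Pdx1 over Oc1 heterozygotes and 4 in the interaction, and none in double over Pdx1 heterozygotes.

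The design also asks whether the Oc1 allele acts alike with and without the Pdx1 allele. Without it the Oc1 heterozygotes stood above control in all 5 genes, whereas with it the double heterozygotes differed from the Pdx1 heterozygotes by at most 0.55 log2 units. The difference between these contrasts was tested as an interaction, double minus Oc1 heterozygotes less Pdx1 heterozygotes minus control. It was called lower for 4 of the 5 genes. Of the 22869 genes 4.63% were called and 2.97% were lower, but unlisted genes could not be called. Only 2265 listed genes had this test, and 1058 of them were called, 679 as lower. The share over all genes is therefore a low background for these 4 calls. The interaction from the authors' deposited table was -4.76 for Cpb1 (SE 0.81, adjusted p = 7.75e-07), -3.71 for Rnase1 (SE 0.97, adjusted p = 0.00427), -1.83 for Amy1 (SE 0.40, adjusted p = 0.000215) and -1.14 for Cpa1 (SE 0.35, adjusted p = 0.0291), by the two-sided normal test. For Amy2b it was -1.86 (SE 0.62, adjusted p = 0.0564 from the authors' deposited table) and was not called, and it was called when p-values were adjusted over the listed genes alone (0.00563). The sum of both single heterozygote differences would place Cpb1 at 5.78 and Rnase1 at 5.21 in double heterozygotes, where the authors' deposited table has 1.02 and 1.5.

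Relatives of the 5 genes were counted from lists of their families. Of 15 other carboxypeptidase genes 14 were counted, and 12 of these are not listed in the authors' deposited table. Cpxm1, a secreted carboxypeptidase-like protein, fell by 0.75 in Oc1 heterozygotes in the authors' deposited table (edgeR adjusted p = 8.45e-09). Cpa3, the mast cell carboxypeptidase next to Cpb1 on chromosome 3, is among those 12, so it was called in none of the authors' comparisons.

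Among the amylases, 4 of the 7 others in the list were counted and all 4 are listed. Amy2a5 rose by 2.79 in Oc1 heterozygotes in the authors' deposited table (edgeR adjusted p = 2.33e-06). Amy2a2, Amy2a3 and Amy2a4 have the same values, within 1.3e-08, and rose by 2.73 in the authors' deposited table (edgeR adjusted p = 6.25e-05), so they amount to 1 measurement. The point estimates of these pancreatic amylases lay above those of Amy1 and Amy2b, though their intervals overlap and the difference was not tested. Per kilobase, the mean log2 CPM from the authors' deposited table was 1.79 for Amy2a5, against 7.88 for Amy2b. Amy2a5 shares 57.2% of its 50-letter and 47.4% of its 100-letter words with other genes, chiefly Amy2a2, Amy2a3 and Amy2a4. The levels of both genes are thus uncertain, and so is the distance between them.

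Of 24 other secreted ribonuclease genes 22 were counted and 5 are listed. Rnase4 and Ang, which lie near Rnase1 on chromosome 14, rose by 1.24 and 1.43 in Oc1 heterozygotes in the authors' deposited table (edgeR adjusted p = 7.25e-06 and 1.24e-06), against 3.65 for Rnase1. Rnase4 stood at 0.54 and Ang at 0.57 in double heterozygotes in the authors' deposited table, and neither was called. The other 3 are Ear1, Ear6 and Ear7, ribonucleases associated with eosinophils, with mean log2 CPM between -2.35 and -2.10 in the authors' deposited table. Ear6 and Ear7 fell by 5.91 and 5.88 in Oc1 heterozygotes in the authors' deposited table (edgeR adjusted p = 0.00185 and 0.00167), at levels so low that few reads stand behind them. Ear1 stood at -3.29 in the authors' deposited table (edgeR adjusted p = 0.0778) and was not called.

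**Figure D4:**
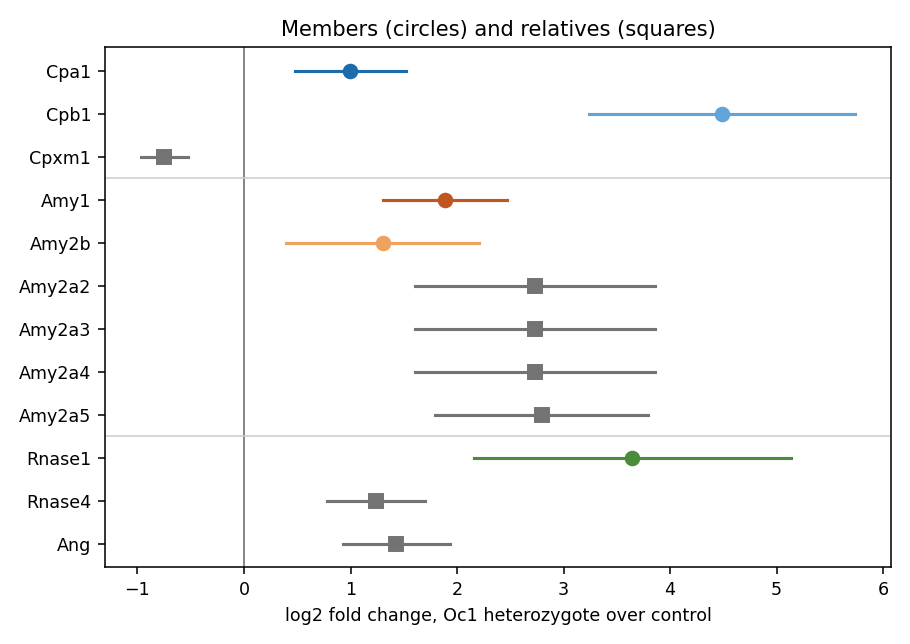
Log2 fold change in Oc1 heterozygotes over control for the 5 genes (coloured circles) and relatives (grey squares), by family, with 95% intervals from the authors' p-values. The Amy2a genes at 2.73 to 2.79 lie above Amy1 and Amy2b, Rnase4 and Ang lie below Rnase1, and Cpxm1 lies below 0; the low-level Ear genes are left out.

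Set among other acinar genes, Cpb1 and Rnase1 stood near the top of the order and Cpa1 near the bottom. The list of 36 other acinar genes holds enzymes and also other proteins, among them Zg16, Reg1 and Dmbt1. Of these 36 genes 33 were counted and 30 are listed in the authors' deposited table. In Oc1 heterozygotes 27 of them rose and none fell, where 3.66% of the 22869 genes were called higher. The median was 2.73 over the 30 listed in the authors' deposited table. Amy2a2, Amy2a3 and Amy2a4, which amount to 1 measurement, count as 3 genes here, and the median is their value. In Pdx1 heterozygotes 3 rose (Sycn, Reg1 and Erp27; median 0.91) and in double heterozygotes 1 rose (Reg1; median 0.44), by the authors' deposited table. Ordered by the difference in Oc1 heterozygotes, the 30 together with the 5 genes place Cpb1 at rank 2 of 35, after Dmbt1, and Rnase1 at rank 8. Amy1 stood at rank 27, Amy2b at rank 31 and Cpa1 at rank 33. Below Cpa1 were only Cuzd1, at 0.97, and Pnliprp2, at 0.35 in the authors' deposited table.

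**Figure D5:**
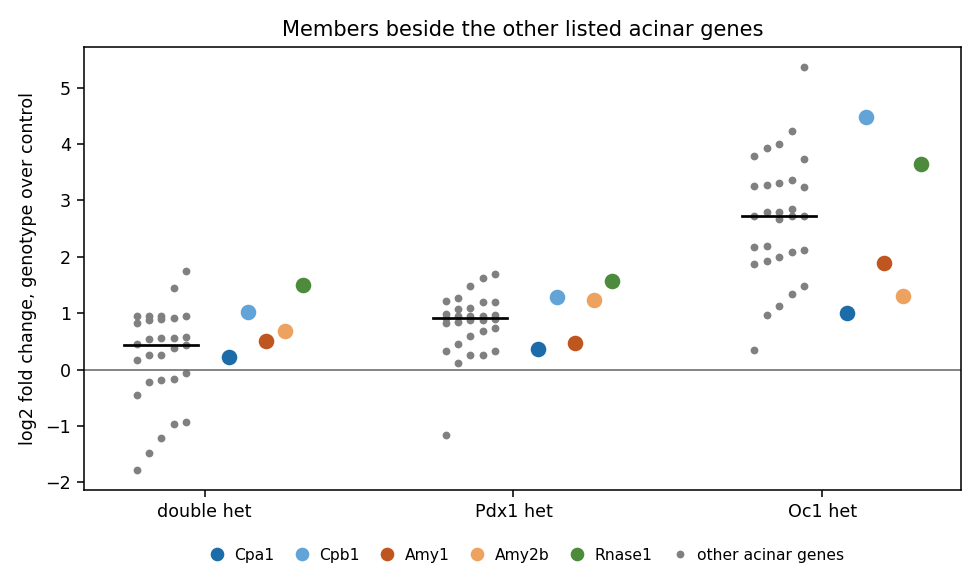
Log2 fold change against control of the 5 genes (coloured) and the 30 other listed acinar genes (grey, horizontal bar at their median) in double, Pdx1 and Oc1 heterozygotes, from the authors' deposited table. In Oc1 heterozygotes Cpb1 and Rnase1 lie above the grey median of 2.73 and Cpa1, Amy1 and Amy2b below it.

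Some acinar transcription factors were also higher in Oc1 heterozygotes. Of 13 such genes 5 are listed, and those not listed count as not called. In Oc1 heterozygotes 4 of the 13 rose, where 3.66% of all genes were called higher. None was called in the other genotypes (at most 0.34 in double and 0.46 in Pdx1 heterozygotes in the authors' deposited table). Rbpjl, the acinar subunit of PTF1, rose by 1.53, Bhlha15 by 0.92, Ptf1a by 0.84 and Xbp1, a regulator of secretory capacity, by 0.78 in the authors' deposited table (edgeR adjusted p = 2.33e-07, 2.25e-05, 0.000203 and 3.69e-07). In double heterozygotes Ptf1a stood at 0.01 in the authors' deposited table (edgeR adjusted p = 1).

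Genes with a like pattern were sought among the 1609 listed genes whose mean log2 CPM was 1 or more, by the Euclidean distance over the 3 log2 fold changes against control. Nearest to Cpb1 were Zg16, a zymogen granule protein (distance 0.54), 2210010C04Rik (0.83) and the elastase Cela2a (0.83), each of them at 3.70 or more in Oc1 heterozygotes in the authors' deposited table. Rnase1 was nearest to Cela2a (0.38), 2210010C04Rik (0.47) and Reg1 (0.84). For Cpa1 the nearest were Sepx1, a methionine sulfoxide reductase (0.05), the lipase gene Lipc (0.08) and Dcxr, a sugar and dicarbonyl reductase (0.09). Those of Amy1 were Mst1 (0.07), Rec8 (0.13) and Casp9 (0.15), and those of Amy2b were Galnt3, an enzyme of mucin-type glycosylation (0.19), the nucleotide-sugar receptor gene P2ry14 (0.29) and Gda, guanine deaminase (0.32). The mean of the 5 genes lay nearest to Reg3d (0.24), to Amy2a3, Amy2a2 and Amy2a4 (0.31 each) and to Liph (0.32). Among the 5 genes themselves Cpb1 and Rnase1 were 1.01 apart, and Cpa1, Amy1 and Amy2b between 0.94 and 1.03 apart, while Cpa1 and Cpb1, of one enzyme family, were the farthest pair at 3.70.

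Several facts of the libraries stand beside these results. Pdx1 stood at -0.61 in double and -0.47 in Pdx1 heterozygotes, and Onecut1 at -0.27 in double and -0.48 in Oc1 heterozygotes in the authors' deposited table (edgeR adjusted p = 5.03e-07, 0.00427, 0.954 and 0.146). In Pdx1 heterozygotes Onecut1 stood at 0.42 in the authors' deposited table (edgeR adjusted p = 0.828). Between the mutants Onecut1 was called higher in Pdx1 than in Oc1 heterozygotes (0.90, edgeR adjusted p = 0.00191 in the authors' deposited table). It was called lower in double than in Pdx1 heterozygotes (-0.70, edgeR adjusted p = 0.0319 in the authors' deposited table). Against control, the lower Onecut1 level of the libraries labelled Oc1 heterozygote was not called, and which exons the allele lacks is not given in the labels. Some markers of other cell types were called lower in the same libraries, where 6.24% of all genes were called in either direction. Of 10 mesenchyme genes 3 were lower (Pdgfra, Tcf21 and Nkx3-2), with a median of -0.86 over the 4 listed. Of 10 neural genes 4 were lower, among them Nefl, Stmn2 and Fabp7, with a median of -1.10 over the 6 listed in the authors' deposited table. Markers that are not listed enter neither median. The libraries of Oc1 heterozygotes also had Xist, the X-inactivation transcript, at -8.78 in the authors' deposited table (edgeR adjusted p = 0.00249), against -0.59 in double and -0.45 in Pdx1 heterozygotes. The part of these differences, and of embryo sex, in the enzyme values was not tested. Of 12 liver genes 7 were called lower in double heterozygotes, where 0.743% of all genes were called, and none in Pdx1 or Oc1 heterozygotes. The median over the 9 listed was -2.06 in double, -1.62 in Pdx1 and -1.10 in Oc1 heterozygotes in the authors' deposited table. None of the 10 mast cell, 9 salivary gland or 10 endothelial markers is listed. Acinar markers were plain in these libraries labelled as pancreas, with Cpa1 at rank 3 of the listed levels.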

How the data were processed

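Dissected pancreata went into Trizol and a TruSeq kit was used for the libraries, per the labels' protocols. CASAVA 1.8.2, edgeR and mouse build mm9 were used, per the submitters' processing notes; the aligner, the counting and the edgeR version are not given in the sources used here. The authors deposited a table of 2283 genes with the mean log2 CPM and, in each of 5 comparisons, the log2 fold change, its p-value and the false discovery rate, per the file headers. The 16 per-library columns of the authors' count table carry no label that ties them to a sample and were not used. From that table the 22869 gene symbols alone were taken. Depth per library, SD, outlying libraries and the planned edgeR quasi-likelihood fits were therefore not analysed here, and precision is given by intervals taken from the authors' p-values. The authors' p-values come from edgeR with Benjamini-Hochberg adjustment.

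In 12 rows a comparison is empty, and in 8 of these the later values were moved back by a column. The values headed as double against Pdx1 heterozygote were those of Pdx1 minus double in 2275 of 2275 rows (tolerance 1e-06), so its sign was turned. Values headed as double against Oc1 heterozygote were those of Pdx1 minus Oc1 in 2279 of 2279 rows and was used as such. Variances relative to the first comparison were 1.15, 0.905, 0.897 and 1.14, where the group sizes give 1.17, 0.9, 0.9 and 1.17 with the first 3 headings as printed. Exchanging the headings of Pdx1 and double heterozygotes would make both later comparisons match theirs exactly, but the sizes then give 1.3, 1.11, 1 and 1.19. That exchange would also place Onecut1 at 0.42 in double heterozygotes, which carry the Oc1 allele, and at -0.27 in Pdx1 heterozygotes in the authors' deposited table, neither of them called. Exchanging double and Oc1 heterozygotes gives 0.9, 1.17, 1.17 and 0.9. The printed headings of the first 3 comparisons were kept on the variances, no label settles the matter, and every direction between genotypes rests on them.

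A gene was called at an adjusted p under 0.05 and a fold change of at least 1.5. A gene that the table does not list counts as not called. Double against Oc1 heterozygotes and the interaction were computed as sums of the authors' log2 fold changes, with variances from the normal quantile of the p-values, a two-sided normal test and adjustment over 22869 genes with unlisted genes at 1. Values with p above 0.9 gave no variance. The computation was tested on simulated normal values in which every gene was listed, so that test does not cover the selection of listed genes. A limit on false calls was set there for the t quantile only, not for the normal one used here. Transcript lengths and shared 50-letter and 100-letter words came from GENCODE M21, and promoters from RefSeq GRCm38.p6, not the build of the files. Python 3.11.15, pandas 2.3.3 and scipy 1.17.1 were used.

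The 5 genes and all gene lists were chosen with earlier results of these data known. Named are the 5 genes, listed family members, the nearest genes by pattern (3 for each gene, 5 for their mean), the targeted genes and the list members given as examples. Dmbt1, Cuzd1, Pnliprp2, Xist, Cpa3 and the acinar factors were named after their values were seen. Alternatives changed the thresholds, the adjustment, the quantile, the source of the variance and the headings. Results of some genes are not reported here.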

Additional observations from a re-analysis of the deposited data

Results flagged for a closer look

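For 4 of the 5 genes the difference between libraries with and without the Oc1 allele depended on the Pdx1 genotype, by the test of the interaction itself, derived from the authors' deposited table. In embryos with the Pdx1 allele, Cpb1 stood at -0.27 in double against Pdx1 heterozygotes, and in embryos without it at 4.49 in Oc1 heterozygotes against control, an interaction of -4.76 on the log2 scale (adjusted p = 7.75e-07, two-sided normal test). For Rnase1 the values of these contrasts were -0.06 and 3.65 in the authors' deposited table, and the interaction was -3.71 (adjusted p = 0.00427). Amy1 had 0.05 and 1.88, and an interaction of -1.83 (adjusted p = 0.000215). Cpa1 had -0.14 and 1.0, and an interaction of -1.14 (adjusted p = 0.0291), which was not called with a t quantile in place of the normal one (adjusted p = 0.0654) or with the headings of the Pdx1 and double heterozygotes exchanged (-0.86, adjusted p = 0.27). With the headings of double and Oc1 heterozygotes exchanged none of the 4 was called. All 4 interactions rest on the same 3 libraries of Oc1 heterozygotes. These libraries also had Xist at -8.78 against control and lower levels of some mesenchyme and neural markers. The part of these differences, and of embryo sex, in the interactions was not tested. Single libraries could not be screened for outlying values, since none is tied to a sample.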

How the results depend on the processing

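Of 213 values of the 5 genes under other settings, 165 had the same direction and side of the threshold, 19 lost the call, 7 gained it and 22 changed sign. All 22 came from exchanging headings, since the other settings keep the log2 fold changes and could not change a direction. A stricter threshold could not change an uncalled value either. Many of the 165 were thus fixed in advance, and their number does not measure robustness. The 4 genes called in double against Oc1 heterozygotes became 2, Cpb1 and Amy1, at an adjusted p under 0.01, a threshold that can only remove calls. They also became 2 with a t quantile of 12 degrees of freedom. At an adjusted p under 0.01 Amy2b lost its call in Oc1 heterozygotes against control, which left 4 of 5. With a 2-fold minimum Cpa1, at 0.9997, lost its call there.

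Exchanging the headings of Pdx1 and double heterozygotes, chosen after seeing the data, removed 3 calls: Rnase1 in Pdx1 against Oc1 heterozygotes (-2.14, adjusted p = 0.0622), Cpa1 in double against Oc1 heterozygotes (-0.64, adjusted p = 0.105) and the interaction of Cpa1. It also turned the uncalled differences of double against Pdx1 heterozygotes to 0.14 for Cpa1, 0.27 for Cpb1, -0.053 for Amy1, 0.55 for Amy2b and 0.064 for Rnase1.

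Exchanging double and Oc1 heterozygotes exchanges their results by construction: 5 genes called in double and 0 in Oc1 heterozygotes against control, 3 in double against Pdx1, 0 in Pdx1 against Oc1 and 0 in the interaction. Double against Pdx1 heterozygotes became 0.64 for Cpa1, 3.21 for Cpb1, 0.074 for Amy2b and 2.08 for Rnase1. Pdx1 against Oc1 heterozygotes became 0.14 for Cpa1, 0.27 for Cpb1, 0.55 for Amy2b and 0.064 for Rnase1. Double against Oc1 heterozygotes became 0.78 for Cpa1, 3.47 for Cpb1, 1.37 for Amy1, 0.63 for Amy2b and 2.14 for Rnase1. The interaction became 0.42 for Cpa1, 2.19 for Cpb1, 0.91 for Amy1 and 0.58 for Rnase1. The variances given with the processing fit the group sizes less well under this exchange than as printed.

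No paired analysis was possible because the count columns carry no sample or replicate number. Leaving out single libraries, other normalizations, count filters and DESeq2 were not run for the same reason, so the weight of any 1 of the 3 Oc1 heterozygous libraries was not measured, and depth limits could not be given.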
